A study of Saccharomyces cerevisiae with 27 samples.

Results

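INO80 is a chromatin remodelling complex that uses ATP to slide nucleosomes and acts at promoters, at replication forks and at DNA breaks. In budding yeast the Ino80 ATPase is the scaffold on which the other subunits sit as modules: Arp5 with Ies6 on the motor, Ies2 beside them, Arp8 with Ies4 near the N-terminal region, and Ies1, Ies3, Ies5 and Nhp10 at the N terminus. Actin, Arp4, Taf14, Rvb1 and Rvb2 are also subunits but work in other complexes as well.

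The genes described are the 10 that encode subunits specific to INO80 (INO80, ARP5, IES6, IES2, ARP8, IES4, IES1, IES3, IES5 and NHP10), chosen by name out of 6664 genes with an RNA value in Saccharomyces cerevisiae. For 4 of them, a strain that lacks the gene was sequenced, so the question was whether loss of 1 subunit alters the RNA of the others. RNA was given as FPKM (fragments per length of gene, scaled to the mapped fragments of the library). All 10 had over 5 FPKM, the minimum for a gene to be counted, wherever they were not deleted. A deleted gene was left out of its comparison, so 10 were counted in sir3Δ and 9 in each other comparison.

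The series held 27 libraries, of which 19 were RNA and 8 were ChIP DNA (chromatin immunoprecipitation followed by sequencing). Cells for RNA were untreated and growing exponentially in YPD, at an OD600 between 0.8 and 1. BY4741 was the wild type for the sir3Δ, arp5Δ, ies6Δ, ies2Δ and sir3Δ arp5Δ strains, and CY337 was the wild type for ino80Δ (CY1315). BY4741, sir3Δ, arp5Δ and ies6Δ had 3 RNA libraries each, ies2Δ, CY337 and ino80Δ had 2, and sir3Δ arp5Δ had 1. The values came as 1 FPKM column per genotype, so no value has a replicate, an SD or a test, and the depth behind each is unknown. Of the RNA libraries 7 carried the name BIOO, among them the 1 library of the double mutant, and ies2Δ had none of these. For ChIP, BY4741 and arp5Δ cells grown like those for RNA gave 1 library each of input, H3K4me3 and H3K79me3. Input and Arp5 were read from CY1838, whose labels give the genotype WT, in cells held in G2/M by nocodazole, let go into alpha-factor and collected at OD 0.6. The labels do not say how many clones each strain stands for or how much of each gene was removed.

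The RNA matched the strain labels at the deleted genes. ARP5 was listed at 0 FPKM in arp5Δ and in sir3Δ arp5Δ, and IES2 was listed at 0 in ies2Δ. IES6 had 0.225 FPKM in ies6Δ against 185 in BY4741, and INO80 had 0.523 in ino80Δ against 22.1 in CY337. LEU2, MET17 and URA3 were each below 1 FPKM in every BY4741-derived strain and at 65.9 FPKM or more in CY337 and ino80Δ. HIS3, the remaining strain marker, went the other way, with 163 to 355 FPKM in BY4741 and its mutants, 3.22 in CY337 and 4.86 in ino80Δ. All 7 a-specific genes, which mark haploid MATa cells, were past 2-fold lower in sir3Δ, arp5Δ, ies6Δ and sir3Δ arp5Δ. Their summed level was 81053 FPKM in BY4741, 248 in sir3Δ, 2541 in arp5Δ, 2829 in ies6Δ and 254 in the double mutant, with 0 of 7 listed at 0. It was 130121 FPKM in ies2Δ, 71601 in CY337 and 64566 in ino80Δ, where 1 of 7 was past 2-fold lower. The part of this marker state in the subunit values was not tested.

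In wild type the subunit genes ranged from 13.1 FPKM for INO80 (YGL150C) to 307 for IES4 (YOR189W) in BY4741, with a median of 75.1 against 35.6 over all genes. In descending order they stood as IES4, IES5, IES6, NHP10, IES3, IES2, ARP5, IES1, ARP8 and INO80. CY337 gave the same order except that IES6 stood above IES5, and its median was 89.1 FPKM against 46.6 over all genes. FPKM is already divided by length, yet the order ran against gene length. Spearman's rho between FPKM and length was -0.99 over the 10 genes in BY4741, described without a test, and -0.47 over the 6060 genes with at least 5 FPKM. The shortest gene, IES4 with 351 bp, had the highest level, and the longest, INO80 with 4470 bp, had the lowest. No replicate spread is available to separate neighbours in this order.

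**Figure D1:**
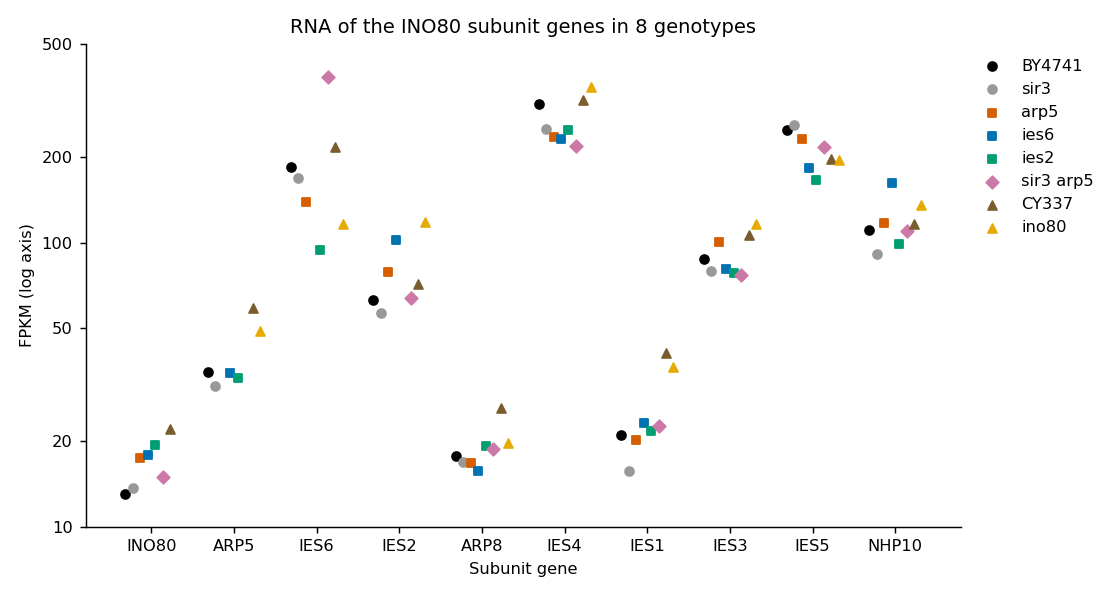
FPKM of each INO80 subunit gene (log axis) in the 8 genotypes, 1 pooled value each, with a gene left out where its own strain lacks it. INO80 and ARP8 lie lowest and IES4 and IES5 highest, and the value that stands farthest from the rest of its gene is IES6 with 383 FPKM in the double mutant.

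No subunit gene that was still present passed 2-fold in any of the 4 strains that lack 1 subunit. That is 0 of 36 values, of which 9 came from each strain. Among all genes counted, 10.4% passed 2-fold in arp5Δ, 9.35% in ies6Δ, 5.75% in ies2Δ and 13.4% in ino80Δ. The median absolute log2 change of the 36 values was 0.21, and the range ran from -0.97 to 0.72. At a lower limit of 1.5-fold there were 4 values: IES2 in ies6Δ and in ino80Δ, and IES6 in ies2Δ and in ino80Δ. By strain these were 0 of 9 in arp5Δ against 26.5% of all genes, 1 of 9 in ies6Δ against 22.1%, 1 of 9 in ies2Δ against 17.8% and 2 of 9 in ino80Δ against 30.1%. In sir3Δ, where all 10 subunit genes are present, 0 of 10 passed 2-fold or 1.5-fold, against 4.1% and 8.14% of all genes.

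**Figure D2:**
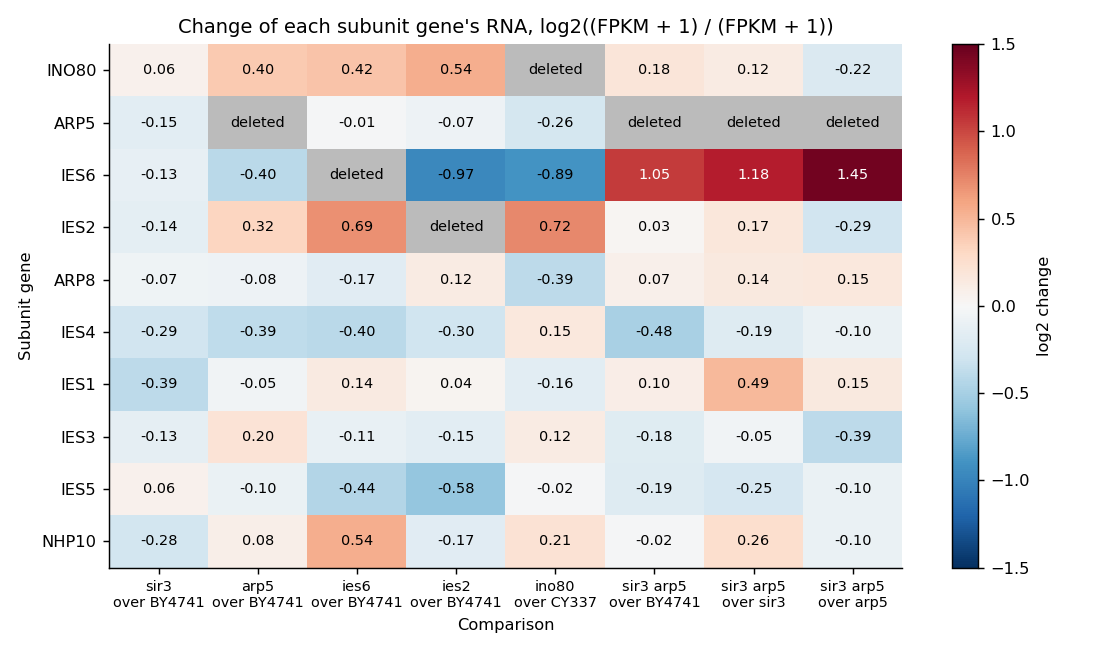
Log2 of (FPKM + 1) in the mutant over (FPKM + 1) in the reference for each subunit gene (rows) and comparison (columns), with deleted genes in grey. The values beyond 1 are those of IES6 in the 3 comparisons of the double mutant (1.05, 1.18 and 1.45).

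INO80 (YGL150C), chromosome VII 221104 to 225573 on the minus strand of sacCer3, encodes the ATPase. Its RNA stood at 13.1 FPKM in BY4741, 13.7 in sir3Δ, 17.5 in arp5Δ, 17.9 in ies6Δ, 19.5 in ies2Δ and 14.9 in the double mutant. The single mutants arp5Δ, ies6Δ and ies2Δ were thus above BY4741 and sir3Δ, and the double mutant was between. CY337, the other wild type, stood above all of these at 22.1 FPKM. The log2 values were 0.40 in arp5Δ, 0.42 in ies6Δ and 0.54 in ies2Δ, none past 1.5-fold, and 0.059 in sir3Δ. These 4 comparisons share the 1 BY4741 column, so a low value there would raise all of them. Of all genes, 42.8% were at least as far from 0 in arp5Δ, 33.4% in ies6Δ and 20.7% in ies2Δ. Over the 15 windows into which the authors' deposited tables divide the gene, the median log2 ratio was 0.51, 0.47 and 0.54 in the same order, close to the FPKM values.

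ARP5 (YNL059C), chromosome XIV 512668 to 514935, encodes the actin-related protein that couples the ATPase to nucleosome sliding. It had 35.02 FPKM in BY4741, 31.4 in sir3Δ, 34.7 in ies6Δ and 33.3 in ies2Δ, and 58.8 in CY337 against 48.8 in ino80Δ. RNA of ARP5 in strains without its partner Ies6 was therefore within 0.014 (log2) of the wild type, with 97.0% of all genes at least as far from 0. In ino80Δ the FPKM table gave -0.26 and the gene windows of the authors' deposited table gave 0.46, so the sign depended on the table. Over all genes longer than 650 bp, which include ARP8 and IES1, the median of FPKM change minus window change in ino80Δ was -0.32.

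IES6 (YEL044W), chromosome V 69757 to 70257 on the plus strand, is the partner of Arp5. Its highest FPKM was 4.07 times its lowest, the widest range of the subunit genes, with IES1 next at 2.59. That rank rests on the 1 library of the double mutant, and without it IES1 had the wider range. IES6 had 185 FPKM in BY4741, 169 in sir3Δ, 139 in arp5Δ, 94.0 in ies2Δ, 383 in the double mutant, 217 in CY337 and 116 in ino80Δ. All 3 single subunit mutants lay below their wild type, and the double mutant lay above every other genotype. The log2 values were -0.40 in arp5Δ, -0.97 in ies2Δ and -0.89 in ino80Δ, and 6.17% of all genes were at least as far from 0 in ies2Δ and 16.4% in ino80Δ. The authors' deposited window tables did not show the same size. There the medians over the gene were -0.14, -0.39 and 0.024. In ino80Δ the FPKM change was below the window change by 0.91 (log2), while among 1457 genes of 300 to 650 bp the middle 50% of this difference lay between -0.38 and 0.37. In ies2Δ it was below by 0.58, against -0.34 to 0.070 for such short genes.

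IES6 had its highest value in the sir3Δ arp5Δ double mutant. The double mutant was past 2-fold higher than BY4741 (log2 1.05), than sir3Δ (1.18) and than arp5Δ (1.45), whereas arp5Δ alone was at -0.40 against BY4741. This was 1 of 9 subunit genes past 2-fold in each comparison, where 27.1%, 22.4% and 18.7% of all genes passed. At 1.5-fold it was again 1 of 9 in each, against 49.2%, 44.2% and 41.5%. The other 8 lay between -0.48 (IES4 over BY4741) and 0.49 (IES1 over sir3Δ). The double mutant rests on 1 BIOO library, and short genes spread widely in it: over BY4741, the middle 50% of genes of 300 to 650 bp lay between -0.54 and 0.86. With quantile normalization IES6 was at 0.86 over BY4741 and 0.99 over sir3Δ, below 2-fold. No window values were available for the double mutant to set beside its FPKM. The part of Sir3 loss in this value was not tested.

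IES2 (YNL215W), chromosome XIV 244468 to 245430 on the plus strand, encodes a subunit that activates the motor together with Arp5 and Ies6. Its RNA stood at 62.8 FPKM in BY4741, 56.7 in sir3Δ, 78.5 in arp5Δ, 102 in ies6Δ and 63.9 in the double mutant, and at 71.7 in CY337 against 119 in ino80Δ. The highest values in each background were those of a single subunit mutant, and the double mutant was level with BY4741. The log2 values were 0.32 in arp5Δ, 0.69 in ies6Δ and 0.72 in ino80Δ, which has its own wild type. Window medians of 0.36, 0.61 and 0.57 in the authors' deposited tables were of similar size, and the one in ies6Δ was the single member value past 1.5-fold in both tables. Among all genes 16.8% were at least as far from 0 in ies6Δ and 22.4% in ino80Δ.

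ARP8 (YOR141C), chromosome XV 589942 to 592587, encodes the actin-related protein of the module that binds linker DNA. Its level varied little among the BY4741 strains, with 17.7 FPKM in BY4741, 16.9 in sir3Δ, 16.7 in arp5Δ, 15.7 in ies6Δ, 19.3 in ies2Δ and 18.7 in the double mutant. CY337 had 26.3 and ino80Δ 19.8, a log2 value of -0.39 that the gene windows of the authors' deposited table gave as 0.20. IES4 (YOR189W), chromosome XV 689624 to 689974, which encodes a checkpoint-linked subunit of the same module, had 307 FPKM in BY4741 and between 219 and 251 in its 5 mutants. These 5 comparisons share the 1 BY4741 column. The log2 values were -0.39 in arp5Δ, -0.40 in ies6Δ and -0.30 in ies2Δ. The gene windows gave less, at -0.12, -0.082 and -0.059. In ino80Δ IES4 stood at 353 FPKM against 317 in CY337.

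The Nhp10 module is the part of the complex specific to yeast-like fungi, and Nhp10 itself is an HMG-box DNA-binding protein. NHP10 (YDL002C), chromosome IV 446967 to 447578, had 111 FPKM in BY4741, 91.5 in sir3Δ, 117 in arp5Δ, 162 in ies6Δ and 98.6 in ies2Δ. Its highest value was the one in ies6Δ (log2 0.54, with 0.37 over the gene windows of the authors' deposited table). IES1 (YFL013C), chromosome VI 107852 to 109930, stayed between 20.2 and 23.2 FPKM in BY4741, arp5Δ, ies6Δ, ies2Δ and the double mutant, with 15.8 in sir3Δ. CY337 and ino80Δ had more, 40.8 and 36.5 FPKM, a log2 value of -0.16 against 0.54 over the gene windows. IES3 (YLR052W), chromosome XII 247201 to 247953, ranged from 76.8 in the double mutant to 116 in ino80Δ, with log2 values from -0.15 to 0.20 in the 4 single subunit mutants. IES5 (YER092W), chromosome V 342855 to 343232, had 249 FPKM in BY4741, 232 in arp5Δ, 183 in ies6Δ and 166 in ies2Δ, and 198 in CY337 against 195 in ino80Δ. Its value in ies2Δ, -0.583, lay just inside the 1.5-fold limit of 0.585 (log2), and the gene windows of the authors' deposited table gave -0.23. With a pseudocount of 0.1 it was -0.58524, just past the limit of 0.58496, so the count at 1.5-fold depends on the pseudocount here.

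The FPKM table and the window tables had the same sign for 28 of the 36 values. In ino80Δ the 2 scales were offset: the median over all genes was -0.010 in FPKM and 0.20 over gene windows, and the median of the 9 subunit genes was -0.020 and 0.34. In the other strains the medians of the subunit genes were -0.054 and -0.019 in arp5Δ, -0.014 and 0.090 in ies6Δ, and -0.15 and -0.0027 in ies2Δ, in the same order, which put the set close to 0 on both scales.

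**Figure D3:**
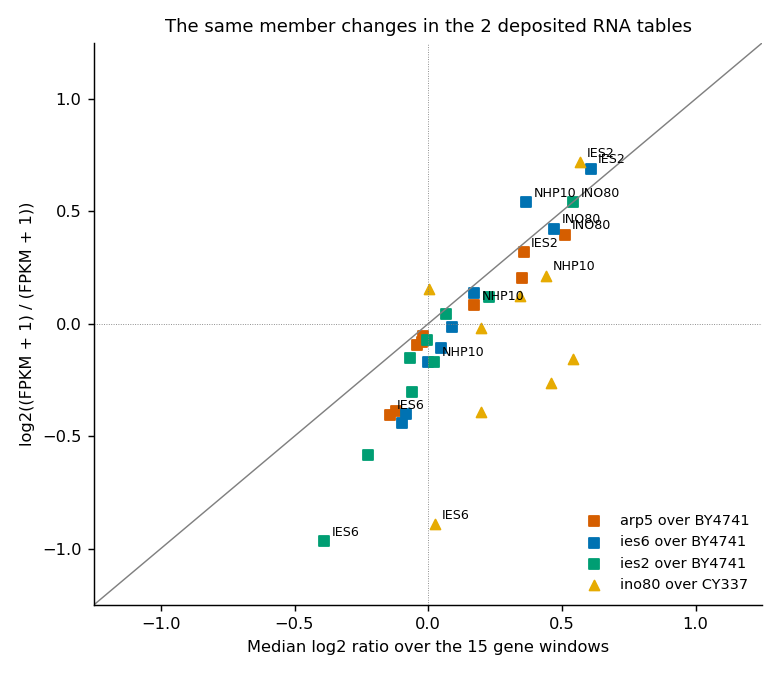
Each point is 1 subunit gene in 1 of the 4 single subunit mutants, with the median log2 ratio over its 15 gene windows on the x axis and the log2 FPKM change on the y axis; the grey line marks equal values. IES2 lies near the line (0.61 and 0.69 in ies6Δ), and IES6 lies far below it in ies2Δ and ino80Δ.

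RNA before some subunit genes gave larger ratios than the genes themselves in the authors' deposited window tables. Among windows in the 1 kb before the gene, the median passed 2-fold for IES6 (1.36) and IES5 (1.49) in arp5Δ, which is 2 of 9 against 9.21% of all genes. In ino80Δ it passed for IES6 (1.11) and IES1 (1.00), 2 of 9 against 13%. None of 9 passed in ies6Δ or ies2Δ, where 8.21% and 4.93% of all genes did, and 0 of 10 in sir3Δ, where 0.927% did. The next gene upstream lies 243 bp from IES5 (YER091C-A), 491 bp from IES6 (YEL045C) and 716 bp from IES1 (YFL012W). The 1 kb before these genes therefore also covers other genes.

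Single windows went further. At ARP5, the window 100 to 200 bp before the gene stood at 4.32 (log2) in arp5Δ, which lacks the gene itself, 3.36 in ies6Δ and 4.63 in ino80Δ, with 1.56 in ies2Δ and 1.88 in sir3Δ. This stretch is free of annotated genes, since the next gene, YNL058C, begins 827 bp away. The INO80 window 600 to 700 bp before the gene stood at 3.17 in arp5Δ, 3.09 in ies6Δ, 1.35 in ies2Δ, 1.62 in sir3Δ and 0.83 in ino80Δ, which lacks the gene. The window with the same distances before IES6 stood at 2.92 in arp5Δ, 3.80 in ino80Δ, 1.91 in ies6Δ, 1.45 in sir3Δ and -0.63 in ies2Δ, and it overlaps YEL045C, which begins 491 bp away. At each of these windows the arp5Δ value was above the ies2Δ and sir3Δ values. Each was the highest window before its gene in arp5Δ, so the choice itself favoured that order. Before IES6 the ies2Δ maximum lay elsewhere, with 1.55 at 500 to 600 bp. These single windows were picked as the highest before their gene, and the levels under the ratios are not given, so weak RNA in both strains cannot be told apart from strong RNA.

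**Figure D4:**
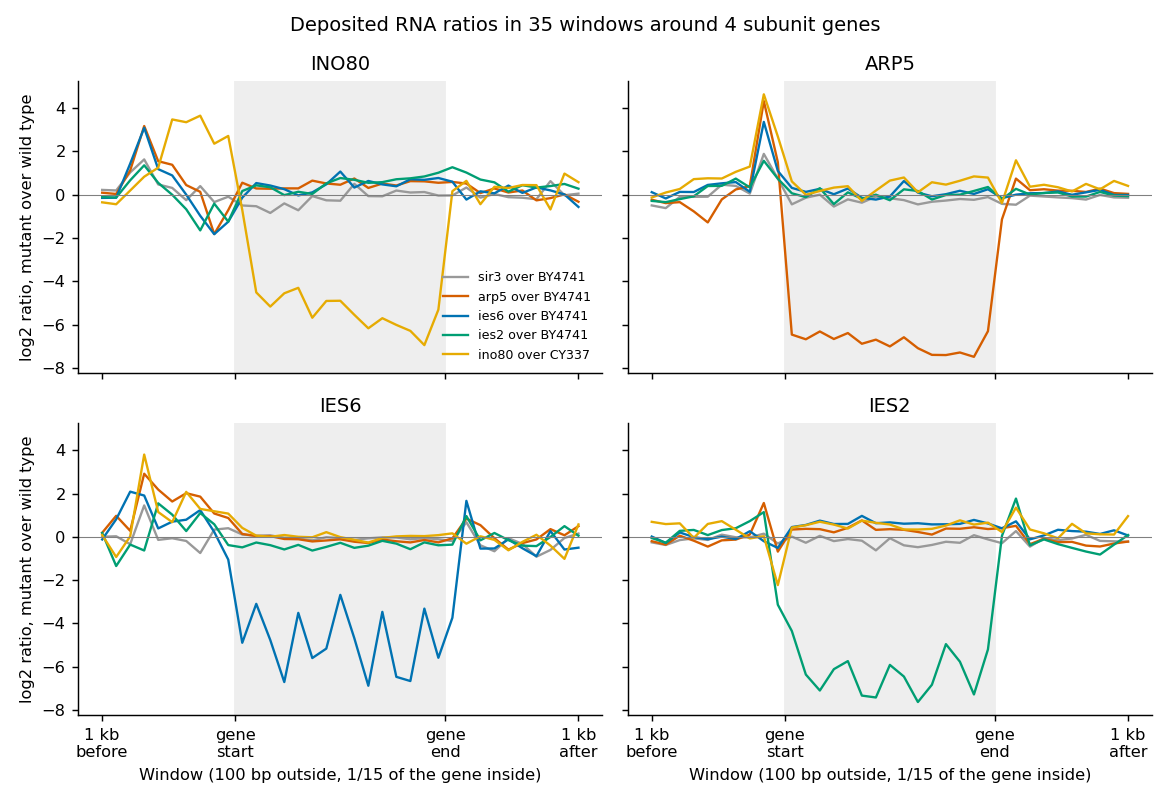
Log2 ratio of RNA, mutant over wild type, in 35 windows around INO80, ARP5, IES6 and IES2 (grey shading marks the gene, whose 15 windows are scaled to its length). The gene drops to a median of -5.31, -6.70, -4.89 and -6.36 in its own deletion strain, and narrow peaks stand before ARP5, INO80 and IES6 in several mutants.

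At the deleted genes the windows show what was left. ARP5 in arp5Δ was between -7.49 and -6.31 in every gene window, while INO80 in ino80Δ was at -0.71 in the first window and at a median of -5.31. The 1 kb before INO80 had a median of 1.80 in ino80Δ, with a maximum of 3.64 at 200 to 300 bp before the gene. YGL149W, which overlaps INO80 on the other strand, rose from 4.01 to 13.6 FPKM in ino80Δ (log2 1.55). Reads of overlapping genes cannot be told apart here, because the TruSeq v2 kit named in the labels does not keep strand.

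The neighbours on each side of the deleted genes did not pass 2-fold in those strains. YNL058C and NOP2, beside ARP5, were at -0.042 and 0.082 in arp5Δ, and RAP1, beside IES2, was at -0.022 in ies2Δ. PEX17, a peroxisomal import gene on the other side of IES2, went from 33.8 to 20.9 FPKM (log2 -0.67). GTA1 beside IES6 was at -0.37 in ies6Δ, and YEL045C had under 5 FPKM in both strains. In ino80Δ, ARO2, which encodes chorismate synthase, stood at 304 FPKM against 537 (log2 -0.82), and NUT1 was at 0.097. The stretch after IES1 is a case of its own: it holds HSP12, a stress-induced membrane chaperone gene 266 bp away, and its windows had a median of 1.57 in sir3Δ, 2.75 in arp5Δ, 4.69 in ies6Δ, 3.59 in ies2Δ and 4.26 in ino80Δ. IES1 itself did not pass 1.5-fold in any of these strains.

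Tables divided by strand were deposited for 1553 genes, with IES2 and IES4 among them. For IES2, the antisense windows before the gene had medians of 3.39 in arp5Δ, 2.57 in ies6Δ and 2.06 in ino80Δ, and 0.097 in sir3Δ, in the authors' deposited tables. Over the gene, the sense medians were 0.62, 0.46 and 0.87, and -0.23 in sir3Δ. Before IES2 the antisense value was thus far above the sense value, which was -0.48, 0.0020 and 0.31. RAP1 lies 295 bp upstream of IES2, so the windows farther out reach into RAP1. The antisense medians before IES4 did not follow those of IES2: they were 0.94 in arp5Δ, 0.91 in sir3Δ and 0 in ies6Δ and ino80Δ. Over the gene the antisense median was -1.12 in ino80Δ. In ies6Δ no antisense window before IES4 was above 0. All 15 antisense windows of the gene were 0 in ies6Δ and in sir3Δ. Whether such a 0 stands for no change or for no signal cannot be told from the ratios. IES4 sense medians over the gene were 0.15 in arp5Δ, 0.15 in ies6Δ, 0.59 in ino80Δ and 0.0086 in sir3Δ. Over all 1553 genes the medians for antisense before the gene were 0.18 in arp5Δ, 0 in ies6Δ and 0.85 in ino80Δ. For sense over the gene they were 0.19, 0.11 and 0.52. The sources used here do not say how strand was assigned, and the ino80Δ tables are named against BY4741 although CY337 was its parent, so which strand carried the RNA is uncertain.

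The subunits that INO80 shares with other complexes were below 0 in each of the 4 single subunit mutants, but none passed 2-fold. Between 5.75% (ies2Δ) and 13.4% (ino80Δ) of all genes did, so none of 5 genes is near that share. ARP4 (actin-related, also in NuA4 and SWR1) had the lowest values of the 5, except in ies2Δ: it stood at 72.2 FPKM in BY4741, 59.4 in sir3Δ, 41.1 in arp5Δ, 43.6 in ies6Δ, 60.2 in ies2Δ and 36.9 in the double mutant, and at 82.7 in CY337 against 43.0 in ino80Δ. Its log2 values were -0.80 in arp5Δ, -0.71 in ies6Δ, -0.26 in ies2Δ and -0.93 in ino80Δ. Medians over the 5 genes were -0.16, -0.31, -0.35 and -0.36 in that order, and -0.23 in sir3Δ. Medians over all genes lay between -0.024 and 0.0035. ARP4 passed 1.5-fold in arp5Δ, ies6Δ and ino80Δ, as did 26.5%, 22.1% and 30.1% of all genes. In sir3Δ, ARP4 (-0.28), TAF14 (-0.27), RVB1 (-0.23) and RVB2 (-0.16) were also below 0, and ACT1 was above (0.11). The comparisons of sir3Δ, arp5Δ, ies6Δ and ies2Δ share the 1 BY4741 column.

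Genes of other chromatin complexes were also counted in the 4 single subunit mutants. Over all genes counted, 10.4% passed 2-fold in arp5Δ, 9.35% in ies6Δ, 5.75% in ies2Δ and 13.4% in ino80Δ. Lists of 5 to 17 genes are too short to be told apart from these shares. Of 10 genes of SWR1, the related remodeller that deposits H2A.Z, 9 of them counted in ies2Δ, 0 passed, with medians of 0.21 in arp5Δ, 0.26 in ies6Δ, 0.033 in ies2Δ and 0.29 in ino80Δ. The same count was 0 for 7 other remodeller ATPases and 0 for 11 SWI/SNF genes. Of 17 RSC genes, RSC6 passed in ino80Δ (1.07). Of 5 HMG-box genes other than NHP10, ABF2 passed in arp5Δ (-1.001) and NHP6B in ies2Δ (-1.13) and ino80Δ (-1.14), and among 6 histone variant and chaperone genes CHZ1, a chaperone of H2A.Z, passed in arp5Δ (-1.13). Median values of the HMG-box list were -0.62, -0.42, -0.43 and -0.65 in arp5Δ, ies6Δ, ies2Δ and ino80Δ.

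For the 6 subunit genes never deleted, the gene with the most similar pattern over the 8 genotypes was looked up among 5782 genes. Pearson's r of log2(FPKM + 1) was 0.97 for ARP8 with CTF4, 0.98 for IES4 with KAR1, 0.98 for IES1 with BUD14, 0.98 for IES3 with AVL9, 0.91 for IES5 with TMA7 and 0.89 for NHP10 with YAF9. These are the highest of many values over 8 points that share the same libraries, and CY337 and ino80Δ stand apart from the BY4741 strains in several of them.

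Arp5 was mapped in the synchronized CY1838 cells, whose chromatin was cut with micrococcal nuclease. The authors' deposited list holds only significant 50 bp windows, as log2 of precipitate over input, from 1 library. All 10 subunit genes had at least 1 such window in the 500 bp before the gene, but so did 90.7% of all genes. IES6, IES1, IES5 and NHP10 had all 10 windows, 4 of 10 against 34.9% of all genes. Within the gene 9 of 10 had at least 1, against 84%, and ARP5 had none. All these shares are near the background.

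In height the subunit genes differed. IES6 had the highest median before the gene, 1.20, and all 10 windows of the gene itself were significant with a median of 0.75. NHP10 followed with 1.10 before the gene, then IES1 with 0.89 and IES4 with 0.86. INO80 and IES2 stood at 0.44 and 0.47, below the median of 0.65 over all genes, and ARP8 had only 2 of 10 windows before the gene, at 0.48.

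H3K4me3, a mark of the first part of active genes, and H3K79me3, a mark over gene bodies, were mapped in BY4741 and in arp5Δ with 1 library each. The arp5Δ ChIP libraries carry the genotype WT in 1 label field, and their titles were used. ARP5 itself matched the titles: its gene windows had a median of -8.42 in the authors' deposited table of arp5Δ over BY4741 H3K79me3. In BY4741 the first 500 bp of the subunit genes carried H3K4me3 between 1.10 (INO80) and 2.03 (ARP8), where the median over all genes was 1.48.

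H3K79me3 over the gene separated long from short subunit genes in BY4741. ARP8, ARP5 and INO80 stood at 1.10, 1.06 and 1.05, and IES1, IES3 and IES2 at 0.69, 0.58 and 0.38. IES4, NHP10 and IES5 lay lower, at -0.031, -0.14 and -0.56, and IES6 was far below all of them at -1.93. Over all genes the median was 0.17. Before the gene IES6 was also the lowest, at -4.46, where H3K4me3 was -4.13 and Arp5 was highest.

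**Figure D5:**
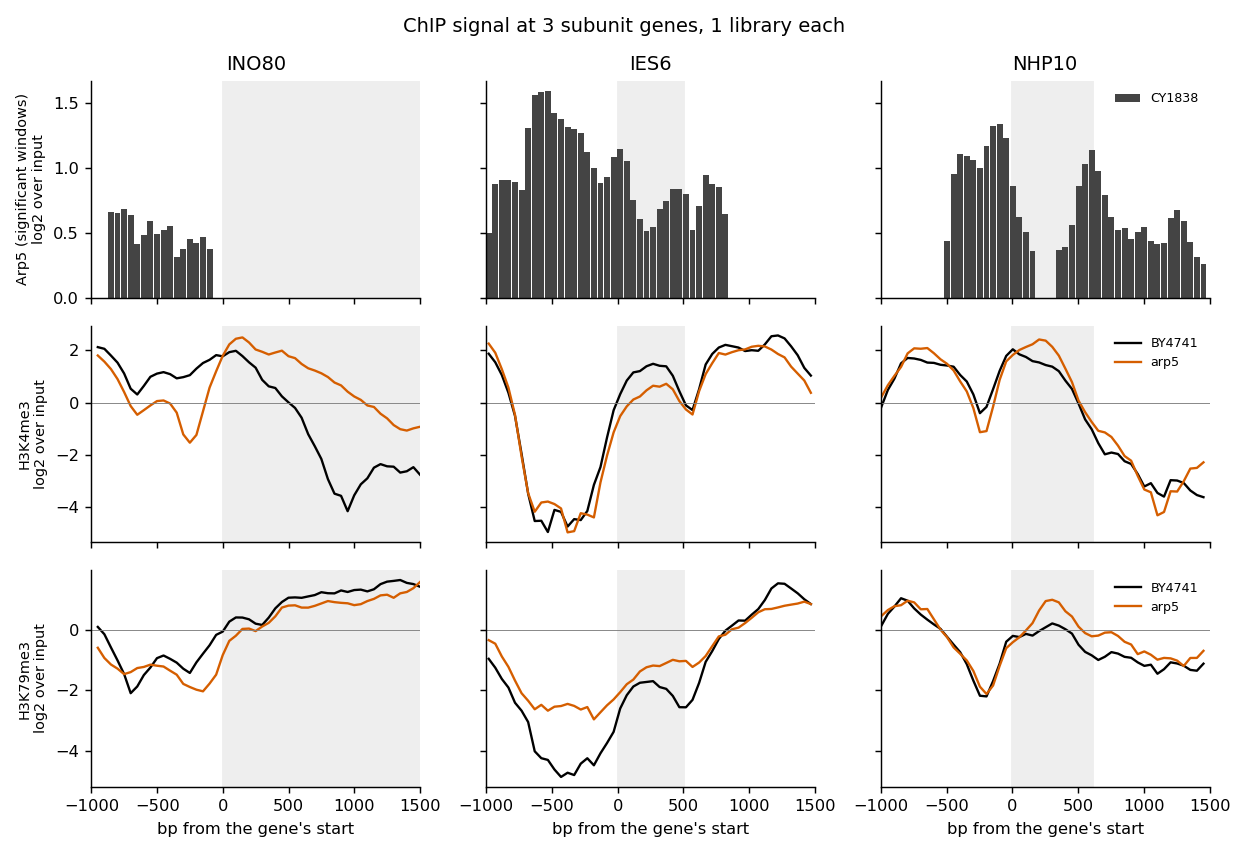
Log2 of precipitate over input by distance from the start of INO80, IES6 and NHP10 (grey shading marks the gene), with significant Arp5 windows as bars and both histone marks as lines for BY4741 and arp5Δ. Arp5 covers IES6 and the stretch before it where both marks are low, and at INO80 the H3K4me3 line of arp5Δ is below BY4741 before the gene and above it inside.

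Between arp5Δ and BY4741, INO80 and IES6 had the most extreme differences among the subunit genes in H3K79me3 before the gene, in opposite directions. The 500 bp before INO80 had H3K4me3 of 1.23 in BY4741 and -0.19 in arp5Δ, a difference of -1.42 with 1.501% of genes lower. H3K79me3 in the same place went from -0.91 to -1.63, and 0.390% of genes had a lower difference, while its first 500 bp had more H3K4me3 in arp5Δ (2.01 against 1.10). The authors' deposited table of arp5Δ over BY4741 gave -0.75 for H3K79me3 before INO80. At IES6, H3K79me3 before the gene was -4.46 in BY4741 and -2.54 in arp5Δ, a difference of 1.92 that exceeded 99.6% of genes, and the authors' deposited table gave 1.80. H3K4me3 over IES6 was 1.18 in BY4741 and 0.35 in arp5Δ.

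Other subunit genes differed in 1 mark or region. Before ARP5, next to the deletion, H3K4me3 was 0.91 in BY4741 and -0.26 in arp5Δ. Before IES2, H3K4me3 was -0.75 in BY4741 and 0.88 in arp5Δ, a difference of 1.63 that exceeded 98.9% of genes. RAP1 lies 295 bp upstream of IES2, so these 500 bp reach into RAP1. Over the IES1 gene, H3K4me3 was -2.86 in BY4741 and -1.68 in arp5Δ, a difference of 1.17 that exceeded 97.8% of genes. ARP8 had less H3K79me3 over its first 500 bp in arp5Δ (0.52 against 1.17), with 2.10% of genes lower. Over all genes the median difference in H3K79me3 was 0.42 before the gene, 0.010 over the gene and 0.064 over its first 500 bp. Differences in H3K79me3 before a subunit gene thus stand against a median of 0.42, not 0. For H3K4me3 before the gene the median difference over all genes was -0.011. With 1 library of each kind, no difference at a single gene has an error.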

How the data were processed

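The subunit genes and the comparison lists were chosen with earlier results of these data known. The authors' deposited RNA values are FPKM, 1 column per genotype, for which the submitters' processing notes name Cuffdiff 2.0.2, Bowtie and TopHat2 2.0.8, with sacCer3 as the build; the sources used here do not say which libraries entered each pooled column. The authors' deposited window tables of RNA and the ChIP tables of 50 bp windows (Bowtie 0.12.9, per the submitters' processing notes) hold log2 ratios. Their scaling and significance threshold are not stated in those sources.

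From these, log2 of (FPKM + 1) in mutant over reference was computed. A gene counted with at least 5 FPKM in either genotype and was called past 2-fold; deleted genes were left out. The planned value per genotype was used, without a test. Window values are medians over 10 windows of 100 bp before, 15 parts of and 10 windows after the gene. The order of windows was checked against neighbouring genes, and 3 repeated rows of the strand tables were dropped. ChIP values are medians over 500 bp before the gene, the gene, or its first 500 bp. Positions are those in the authors' files; 99.9% of 6008 genes had the same start and end in the RefSeq table used for names. Named genes are the 10 members, the cell type and strain markers, up to 2 extremes of each other list, the neighbours of deleted members and the most similar gene of each member never deleted; YGL149W and HSP12 were chosen after their values were seen. The scripts were tested on simulated data. Python 3.11.15, pandas 2.3.3, numpy 2.4.6 and scipy 1.17.1 were used. Sequences are not used here.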

Additional observations from a re-analysis of the deposited data

How the results depend on the processing

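No paired analysis was possible because each genotype has 1 pooled column. Leaving out a library was not possible for the same reason, so no error stands behind any value, and depth is unknown. Pseudocounts of 0.1 and 5, no filter or a mean FPKM of at least 10, centring, quantile normalization, means, windows in place of FPKM, 300 bp before the gene and, added after seeing the data, the first 500 bp of the gene were tried. Of 134 alternative values of the set, 121 kept within their limit, which was 0.2 (log2) for medians and the same number for counts. For single subunit genes the limit was only the 2-fold call, which 482 of 484 values kept. Changes of sign or size below 2-fold were not counted. In ino80Δ the gene windows gave 0.024 for IES6 and 0.46 for ARP5, against -0.89 and -0.26 by FPKM.

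The values outside their limit were these. At 1.5-fold, 1 subunit gene was called in ies6Δ, 1 in ies2Δ and 2 in ino80Δ, instead of 0. These counts use the pseudocount of 1, and with 0.1 IES5 in ies2Δ also passed 1.5-fold. The median change in ino80Δ was 0.34 by gene windows and -0.020 by FPKM. With quantile normalization 0 subunit genes passed 2-fold in the double mutant over BY4741 or over sir3Δ, since IES6 stood at 0.86 and 0.99. The median H3K4me3 over the 9 genes other than ARP5 was 1.18 in BY4741 and 1.21 in arp5Δ; as a mean over windows it was 0.95 and 0.96, and over the first 500 bp 1.72 and 2.01. H3K79me3 before the gene was -1.09 and -1.28, and -1.58 and -1.63 over 300 bp. H3K79me3 in arp5Δ was 0.48 over the gene and 0.26 over its first 500 bp. The fold limit, the region and the gene length they cover differ by construction; for the rest the cause was not tested.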
